A study of Mus musculus with 6 samples.

Results

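The expression of 10 transcription factors that define adipocyte identity was examined in bulk RNA-Seq of inguinal white adipose tissue (iWAT). The genes were *Pparg*, *Ppara*, *Rxra*, *Cebpa*, *Cebpb*, *Cebpd*, *Ebf1*, *Ebf2*, *Klf15* and *Prdm16*, a set of known regulators that was chosen by name, with earlier results of these data known, as were the gene lists below. Of these 10, 5 had at least 1 row in the count table (*Pparg*, *Ppara*, *Rxra*, *Klf15* and *Prdm16*), out of 19509 symbols in all. The other 5, the 3 C/EBP genes and the 2 EBF genes, were not analysed here. All mice were on a C57BL/6 background and had eaten a Western diet for 12 weeks. They carried the floxed *Lexis* allele, *Lexis* being a nuclear long noncoding RNA of fat. The 3 libraries labelled AdWT came from *Lexis* fl/fl mice without Cre and the 3 labelled AdKO from mice that also carried adiponectin-cre, which acts in adipocytes and leaves other cells of the depot unrecombined. The samples used here carry no label for age or sex, and nothing in the labels shows whether a library held 1 animal or several, although the study calls them biological replicates, so *p* values measure the spread between these libraries. The comparison asks whether the factors that set adipocyte fate differed in amount of RNA between these groups.

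PPARγ is the nuclear receptor that drives fat cell differentiation and keeps mature adipocytes filled with lipid, and it binds DNA as a heterodimer with the retinoid X receptor, of which RXRα is the main form in fat. In classical adipogenesis C/EBPβ and C/EBPδ come first and induce PPARγ and C/EBPα, which then sustain each other. EBF1 and EBF2 act beside them, EBF2 with a bias toward brown and beige cells. KLF15 is a glucocorticoid-responsive zinc finger factor of metabolic tissues, PRDM16 is a coregulator of the brown and beige program, and PPARα activates fatty acid oxidation genes.

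The libraries held between 14470542 and 17882713 counts each. Levels are given as counts scaled to the library's effective size (CPM), with edgeR's TMM factors, and a count of 0 allows up to 3 counts, or between 0.179 and 0.206 CPM, a limit that covers counting error only. The row of *4930412L05Rik*, the lincRNA gene at the *Lexis* locus, had 8, 9 and 8 counts in AdWT-labelled libraries and 21, 11 and 13 in AdKO-labelled ones (log2 fold change 0.87, standard error 0.381, adjusted *p* = 0.851 in edgeR's quasi-likelihood fit). Since it was not lower in AdKO-labelled libraries, groups are named by their labels and every direction below rests on those labels. The tissue label was borne out by fat cell transcripts. The 7 of 10 adipocyte markers with a row, among them *Adipoq* and *Lep*, summed to between 46200 and 54700 CPM in AdWT-labelled libraries and between 41400 and 42100 CPM in AdKO-labelled ones, ranges that did not overlap. Most of this sum was *Fabp4*, with 31900, 33700 and 35000 CPM against 28900, 30000 and 27200 CPM (log2 fold change -0.23, standard error 0.131). *Lep* came next, with 8920, 10100 and 11900 CPM against 6830, 6760 and 8810 CPM (-0.46). *Adipoq* overlapped between groups (-0.25) and *Plin1* was at 0.10. In such bulk samples, fewer adipocytes and less RNA per adipocyte cannot be told apart. Skeletal muscle markers also differed, with a summed level between 19.8 and 178 CPM in AdWT-labelled libraries, highest in AdWT replicate 2, and between 6.31 and 7.22 CPM in AdKO-labelled ones. The part of either in the values below was not tested.

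The structure of each gene bears on how far its counts can be read, because the table splits many genes into several rows. On mouse genome NCBIM37 (mm9), the build of the alignment, *Pparg* (ENSMUSG00000000440.6) lies on the plus strand of chromosome 6 from 115311239 to 115440419 and has 2 annotated protein-coding transcripts. They differ in where they start. *Pparg-202* begins at the upstream promoter, which makes PPARγ1, and *Pparg-201* begins at 115372084 at the downstream promoter, which makes the adipocyte-enriched PPARγ2. Only 215 of the 1857 exonic bases of *Pparg-202* and 127 of the 1769 of *Pparg-201* are in no other transcript, and the rest is shared. *Pparg* also has 2 rows in the table, and the rows carry no transcript name, so neither could be assigned to an isoform. *Klf15* (ENSMUSG00000030087.5, chromosome 6, plus strand, 90412570 to 90425232) has the same arrangement. It has 2 transcripts, which hold 153 and 154 bases of their own, and 2 rows. *Ppara* (ENSMUSG00000022383.7, chromosome 15, plus strand, 85565413 to 85633249) has 2 rows and 6 annotated transcripts. *Prdm16* (ENSMUSG00000039410.9, chromosome 4, minus strand, 153690234 to 154010982) has 6 rows and 16 transcripts, and none of its 10 protein-coding transcripts holds a base of its own. *Rxra* (ENSMUSG00000015846.8, chromosome 2, plus strand, 27531960 to 27618477) has 1 row. No exon of another annotated gene overlapped an exon of these 5.

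Sequences are shown to set the windows at or within 77 bases of the 2 annotated transcript starts of *Pparg* beside 1 of *Rxra* and 1 of *Klf15*. Each is the 250 bases before a RefSeq transcription start, 5′ to 3′, from a RefSeq promoter table built on GRCm38.p6. All 5 genes were matched in it by symbol, with 8 starts, 3 of *Pparg* and 2 of *Rxra*. Each window was then placed on NCBIM37 by exact match, which gave 1 match each. Capitals mark 5 of the motifs searched for on both strands, where neighbouring matches can run together. They are the CCAAT box, spelled as its name, and the TATA box, spelled TATAAA. The GC box was spelled GGGCGG. The E-box was spelled CACGTG. The C/EBP core was spelled TTGCNNAA.
*Pparg*, upstream start, chr6:115310912-115311161, plus strand: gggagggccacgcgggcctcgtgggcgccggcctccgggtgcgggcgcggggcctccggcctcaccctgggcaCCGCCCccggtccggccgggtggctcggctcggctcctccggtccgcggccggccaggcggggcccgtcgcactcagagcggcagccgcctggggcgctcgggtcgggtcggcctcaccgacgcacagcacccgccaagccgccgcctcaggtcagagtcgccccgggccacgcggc
*Pparg*, downstream start, chr6:115371834-115372083, plus strand: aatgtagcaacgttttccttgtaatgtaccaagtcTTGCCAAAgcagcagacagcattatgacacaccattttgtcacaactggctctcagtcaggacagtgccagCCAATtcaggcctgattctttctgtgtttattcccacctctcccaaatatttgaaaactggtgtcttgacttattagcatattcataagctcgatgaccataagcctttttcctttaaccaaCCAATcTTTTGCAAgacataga
*Rxra*, chr2:27532471-27532720, plus strand: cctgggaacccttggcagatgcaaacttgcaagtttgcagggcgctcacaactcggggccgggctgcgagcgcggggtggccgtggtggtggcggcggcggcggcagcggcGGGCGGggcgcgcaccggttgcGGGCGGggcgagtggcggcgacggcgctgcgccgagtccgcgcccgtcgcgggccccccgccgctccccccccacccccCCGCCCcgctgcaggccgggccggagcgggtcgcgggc
*Klf15*, chr6:90412320-90412569, plus strand: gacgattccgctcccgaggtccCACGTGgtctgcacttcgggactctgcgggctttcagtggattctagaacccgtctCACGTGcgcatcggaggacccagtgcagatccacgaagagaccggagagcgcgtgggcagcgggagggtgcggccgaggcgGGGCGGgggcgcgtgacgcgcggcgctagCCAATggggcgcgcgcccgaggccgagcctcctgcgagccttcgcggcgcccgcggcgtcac

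The 3 *Pparg* windows differed in base composition. The upstream one was 82.4% G or C, more than 99.4% of the 32851 promoter windows in the table, and held 1 GC box. The downstream one was 40.8% G or C, more than only 13.3% of them. It held 2 CCAAT boxes and 2 C/EBP cores, the latter a motif found in 9.56% of all windows, and it was the only one of the 8 windows with a C/EBP core. The third, not printed, is at chr6:115312117-115312366. It was 63.6% G or C and held 1 CCAAT box, 2 GC boxes and the only TATA box of the 8. The *Rxra* window shown was 81.2% G or C with 3 GC boxes, a motif in 32.7% of all windows, while the other *Rxra* window (chr2:27564562-27564811) was 55.2% G or C with none. The *Klf15* window held 2 E-boxes, a motif in 6.02% of all windows, and no other window of these genes had one. The sequence AGGTCA, not capitalised, was in 3 of the 8 windows (2 of *Pparg* and the other of *Rxra*) and in 14% of all windows. A direct repeat of AGGTCA with 1 base between, the element that PPAR and RXR bind as a pair, was in none of the 8 windows and in 0.0335% of all windows. These matches describe the letters in 250 bases and were not tested as binding sites.

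*Rxra* had by far the most counts of the 5. Its counts were 9761, 11426 and 10413 in AdWT-labelled libraries and 9212, 10483 and 9534 in AdKO-labelled ones. After scaling these were 639, 683 and 697 CPM against 633, 691 and 573 CPM. The groups overlapped, with the lowest value in AdKO replicate 3. Its mean level exceeded that of 98.3% of the rows tested. The group means were 673 ± 30.4 CPM (SD, n = 3) and 632 ± 58.8 CPM (SD, n = 3). The fold change of AdKO-labelled over AdWT-labelled libraries was 0.940, with a 95% interval from 0.813 to 1.09 (log2 fold change -0.09, standard error 0.0891, adjusted *p* = 0.885 in edgeR). At this depth counting error alone would give a coefficient of variation of 0.993%, while that over the 6 libraries was 7.26%. *Rxra* had the narrowest interval of the 5.

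*Pparg* had 266, 300 and 315 counts in AdWT-labelled libraries and 231, 328 and 250 in AdKO-labelled ones on its main row. After scaling these were 17.4, 17.9 and 21.1 CPM against 15.9, 21.6 and 15 CPM. AdKO replicate 2 was the highest of all 6 libraries and AdKO replicate 3 the lowest, so the spread within AdKO-labelled libraries covered the whole range. The group means were 18.8 ± 1.99 CPM (SD, n = 3) and 17.5 ± 3.58 CPM (SD, n = 3). The fold change was 0.931, with a 95% interval from 0.711 to 1.22 (log2 fold change -0.10, standard error 0.166, adjusted *p* = 0.913 in edgeR). The second *Pparg* row had 3, 2 and 3 counts against 3, 1 and 1, and adding it to the first gave a log2 fold change of -0.11. With AdKO replicate 2 omitted the log2 fold change was -0.29, and omitting each other library in turn gave -0.16 to 0.00.

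*Ppara*, the oxidative relative of *Pparg*, was near the limit of detection. Its main row had 3, 6 and 16 counts in AdWT-labelled libraries and 13, 4 and 13 in AdKO-labelled ones, or 0.196, 0.359 and 1.07 CPM against 0.894, 0.263 and 0.781 CPM. High and low libraries occurred in both groups. The highest, AdWT replicate 3, also had the most hepatocyte marker RNA (509 CPM summed), whose part in the value was not tested. Its second row had 8, 4 and 5 counts against 10, 2 and 6. The fold change of the main row was 1.20, with a 95% interval from 0.398 to 3.64 (log2 fold change 0.27, standard error 0.683, adjusted *p* = 0.953 in edgeR), and with both rows summed the log2 fold change was 0.20. The direction depended on single libraries. It was -0.12 without AdWT replicate 1 and -0.02 without AdKO replicate 1, and it was 1.17 without AdWT replicate 3. The coefficient of variation over the 6 libraries was 61.8%, where counting error alone would give 33%.

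*Klf15* had 210, 196 and 241 counts in AdWT-labelled libraries and 186, 177 and 195 in AdKO-labelled ones. After scaling these were 13.7, 11.7 and 16.1 CPM against 12.8, 11.7 and 11.7 CPM. AdWT replicate 2 lay with the libraries labelled AdKO, so the groups overlapped. The group means were 13.9 ± 2.21 CPM (SD, n = 3) and 12.1 ± 0.635 CPM (SD, n = 3). The fold change was 0.870, with a 95% interval from 0.683 to 1.11 (log2 fold change -0.20, standard error 0.149, adjusted *p* = 0.855 in edgeR). Its second row was at 0 in every library. The log2 fold change was -0.31 without AdWT replicate 2, the library with the most muscle RNA, and -0.09 without AdWT replicate 3.

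*Prdm16*, the beige regulator, had 15, 8 and 7 counts in AdWT-labelled libraries and 12, 20 and 7 in AdKO-labelled ones on 1 row. The other 5 rows were at 0 in every library. After scaling the values were 0.981, 0.478 and 0.468 CPM against 0.825, 1.32 and 0.421 CPM. AdKO replicate 2 was the highest and AdKO replicate 3 the lowest of the 6, as for *Pparg*. The fold change was 1.32, with a 95% interval from 0.575 to 3.03 (log2 fold change 0.40, standard error 0.513, adjusted *p* = 0.895 in edgeR). It depended on AdKO replicate 2, without which the log2 fold change was -0.06, and reached 0.83 without AdWT replicate 1.

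**Figure D1:**
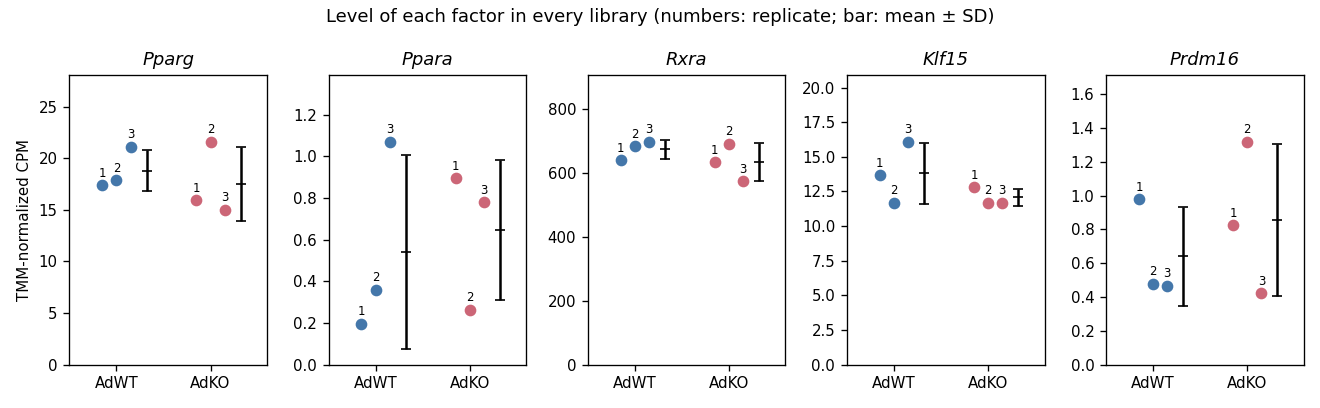
TMM-normalized CPM (y axis, linear from 0, own scale for each gene) of the 5 factors in each library, with points numbered by replicate and a bar for the mean ± SD of the 3 libraries labelled AdWT (blue) or AdKO (red). The groups overlap in all 5 panels, and AdKO replicate 3 has the lowest *Pparg*, *Rxra* and *Prdm16*.

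None of the 5 genes passed the test between groups. No row of the 9872 tested had an adjusted *p* under 0.05 (0% of rows) in edgeR's quasi-likelihood test, where the smallest was 0.206. At an unadjusted *p* under 0.05 there were 0 of 5, against 5.73% of all rows, 2.76% higher and 2.98% lower. That background moved with the libraries, from 329 of 10286 rows without AdWT replicate 2 to 1208 of 10204 without AdWT replicate 1, and was 27.5% of rows when scaled to the adipocyte markers. DESeq2 called none of the 3 it gave an adjusted *p* (*Ppara* and *Prdm16* got none), against 0.392% of the rows it adjusted. The 2 groups overlapped in all 5 genes, where 11.9% of all rows did not overlap, 6.16% higher and 5.72% lower. In exact permutation (two-sided, on log2 CPM), *p* lay between 0.3 for *Klf15* and 0.8 for *Ppara*, and 0.1 is the smallest that 3 libraries against 3 allow. Adjusted over the 5 genes, it was 0.8 for each. Of the 5, 3 had a log2 fold change under 0 and 2 above 0, with a median of -0.09 (-0.16 without AdKO replicate 2, 0.00 without AdKO replicate 3), beside 51.7% of rows above 0 and a median of 0.007 over all rows tested. Scaled to the adipocyte markers, *Pparg* was at 0.17, *Rxra* at 0.18 and *Klf15* at 0.07, but that scaling moved all rows alike, to a median of 0.28. Relative to this median they were at -0.10, -0.09 and -0.20. The fold intervals differed in width, from 0.813 to 1.09 in *Rxra* up to 0.398 to 3.64 in *Ppara*.

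**Figure D2:**
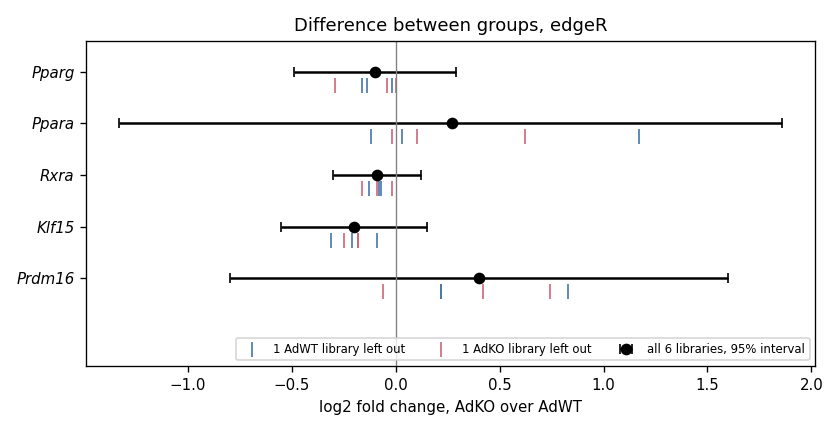
Log2 fold change of AdKO-labelled over AdWT-labelled libraries (x axis) for each factor, with its 95% interval from edgeR (black) and the value with 1 library left out (blue, an AdWT library; red, an AdKO library). Every interval spans 0, from the narrowest in *Rxra* (-0.30 to 0.12) to the widest in *Ppara* (-1.33 to 1.86).

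A comparison of levels between the 5 genes has to allow for the rows. Per kilobase of annotated exon, *Rxra* had between 105 and 128 CPM, the main row of *Pparg* between 7.56 and 10.9, that of *Klf15* between 4.63 and 6.37, that of *Ppara* between 0.0511 and 0.279, and that of *Prdm16* between 0.0452 and 0.142. In this order the ranges of *Ppara* and *Prdm16* overlapped and the others did not. Only *Rxra* has a single row. Whether reads common to several rows of a gene were left uncounted was not tested. The table as a whole showed more rows at 0 where a symbol had more rows. Of rows whose symbol has 1 row, 31.8% were at 0 in all 6 libraries, against 41.9% at 2 rows per symbol, 65.9% at 6 rows and 70.3% at 7 or more. Counted by symbol the share ran the other way, with 31.8% of symbols at 0 in all rows where there is 1 row, 22.4% at 2, 15.9% at 6 and 12.4% at 7 or more. The median summed count of symbols above 0 was 292 with 1 row and 198 with 2. It was 98 with 3 rows, 87 with 4, 91.5 with 5, 119 with 6 and 108.5 with 7 or more. *Pnpla2*, which encodes the main triglyceride lipase of adipocytes, has 4 rows and was listed at 0 in each. Since the rows of such genes, the other 4 factors among them, could not be matched to transcripts, their levels per length are uncertain.

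**Figure D3:**
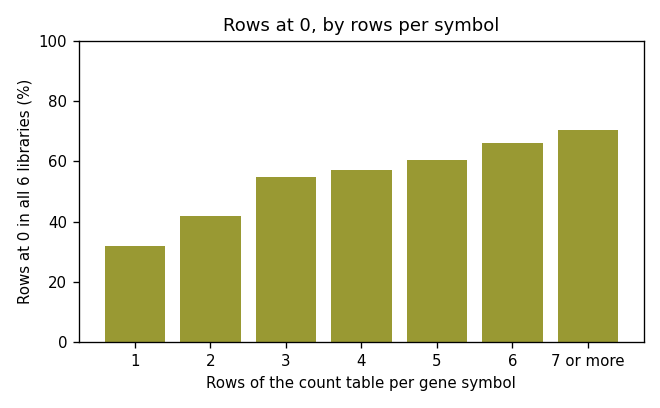
Percent of rows at 0 in all 6 libraries (y axis) by the number of rows that share a gene symbol (x axis). The share goes from 31.8% for symbols with 1 row, such as *Rxra*, to 65.9% for symbols with 6 rows, such as *Prdm16*, and 70.3% at 7 or more.

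Ratios within a library do not depend on scaling between libraries. The count of *Pparg* was 2.73%, 2.63% and 3.03% of that of *Rxra* in AdWT-labelled libraries and 2.51%, 3.13% and 2.62% in AdKO-labelled ones, a difference in the mean log2 ratio of -0.02 (two-sided exact permutation test, *p* = 0.7, adjusted over 4 ratios 0.7). The highest and the lowest of these 6 values were both in AdKO-labelled libraries. *Klf15* stood at between 1.72% and 2.31% of *Rxra* in AdWT-labelled libraries and between 1.69% and 2.05% in AdKO-labelled ones (difference in log2 ratio -0.10, exact permutation *p* = 0.5, adjusted 0.667), a difference of -0.22 without AdWT replicate 2 and -0.01 without AdWT replicate 3. *Ppara* stood at 1.13%, 2% and 5.08% of *Pparg* against 5.63%, 1.22% and 5.20% (difference in log2 ratio 0.51, exact permutation *p* = 0.5, adjusted 0.667), and the difference was 0.21 with all rows of each gene summed, 0.06 without AdWT replicate 1 and 1.19 without AdKO replicate 2. The 4th ratio set *Rxrg*, the RXR gene that is strongest in muscle and brain, against *Rxra*. It was 0.584%, 0.578% and 0.634% in AdWT-labelled libraries and 0.564%, 0.382% and 0.399% in AdKO-labelled ones. All 3 of the latter lay below all 3 of the former, though AdKO replicate 1 only just did (difference in log2 ratio -0.43, exact permutation *p* = 0.1, the smallest possible, adjusted 0.4). This ratio was chosen after the values had been seen, and muscle RNA was lower in the same libraries (6.31 to 7.22 against 19.8 to 178 CPM for the summed markers). Within AdWT-labelled libraries, replicate 2 had the most muscle RNA (178 CPM) and the lowest ratio (0.578%). Replicate 3 had the least (19.8 CPM) and the highest ratio (0.634%). The part of muscle RNA in the ratio was not tested.

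**Figure D4:**
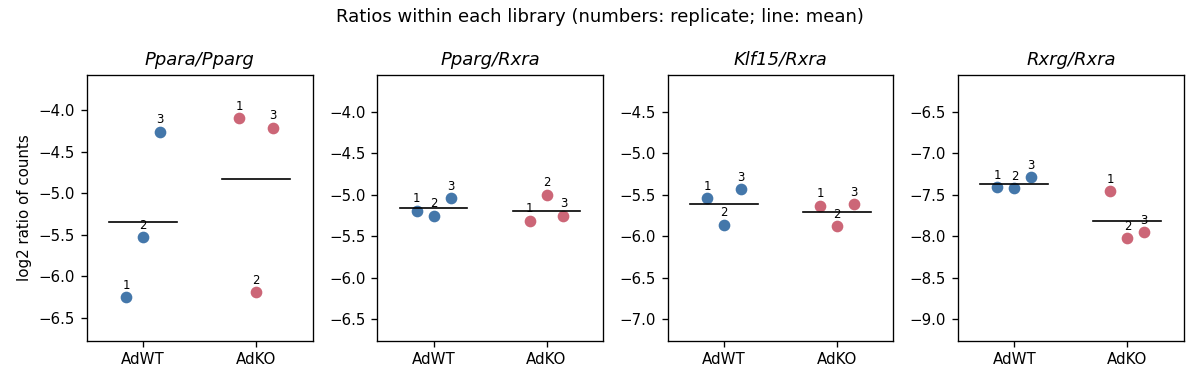
Log2 ratio of counts within each library (y axis, the same span in each panel), with points numbered by replicate and a line at the mean of the libraries labelled AdWT (blue) or AdKO (red). *Rxrg* to *Rxra* is the only one of the 4 whose groups do not overlap, with means of -7.37 and -7.81.

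Relatives of the factors were measured beside them. Of 20 relatives of the 10 factors, 18 had a row and 11 could be tested, 5 higher and 6 lower in AdKO-labelled libraries, with a median (log2 fold change) of -0.01 that was 0.26 when scaled to the adipocyte markers. None had an adjusted *p* under 0.05 in edgeR and 2 had an unadjusted *p* under 0.05 (18.2%, against 5.73% of all rows). These were *Klf4*, a Krüppel-like factor known from early adipogenesis, with 201, 189 and 187 CPM against 215, 211 and 214 CPM (log2 fold change 0.15, standard error 0.062), and *Rxrg*, with 3.73, 3.95 and 4.42 CPM against 3.57, 2.63 and 2.28 CPM (log2 fold change -0.51, standard error 0.218). Both genes lost that level in DESeq2, with the replicate block, with library size only and without AdWT replicate 2. *Ppard*, which encodes PPARδ, had 1701, 1872 and 1728 counts against 1677, 1833 and 1770 (log2 fold change 0.01, fold interval 0.902 to 1.13). *Cebpg* is a C/EBP without an activation domain that was measured at 3477, 4032 and 3577 counts against 3234, 3357 and 3786 (log2 fold change -0.08, fold interval 0.859 to 1.05). Its groups did not overlap in CPM, as in 11.9% of all rows. *Ppard* and *Cebpg* were singled out after their values had been seen. *Ebf3*, another EBF gene, was listed at 0 in its 3 rows.

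Coregulators that PPARs and PRDM16 recruit were also examined. Of 20, 14 could be tested, 6 higher and 8 lower in AdKO-labelled libraries, with a median (log2 fold change) of -0.05 (0.21 scaled to the adipocyte markers). The 1 with an unadjusted *p* under 0.05 (7.14%, against 5.73% of all rows) was *Tbl1x*, a subunit of the NCoR corepressor complex, with 194, 230 and 246 CPM against 187, 173 and 195 CPM (log2 fold change -0.27, standard error 0.101, adjusted *p* = 0.851 in edgeR). *Ppargc1a* and *Ppargc1b*, the PGC-1 coactivators of oxidative metabolism, have 2 rows each and were listed at 0 in all of them, as was *Tbl1xr1* in its 3 rows. Of 20 other transcription factors of adipocytes, 12 could be tested, 5 higher and 7 lower, with a median of -0.14 (0.14 scaled to the adipocyte markers). The 1 with an unadjusted *p* under 0.05 (8.33%, against 5.73% of all rows) was *Foxo1*, an insulin-regulated factor that restrains PPARγ, at 498, 540 and 598 CPM against 470, 436 and 490 CPM (log2 fold change -0.23, standard error 0.0904), and its groups did not overlap, as in 11.9% of all rows. *Nfib*, *Creb1* and *Irf4* were listed at 0. Of 15 genes listed as brakes on white or beige adipogenesis, 10 could be tested, 8 higher and 2 lower, with a median of 0.16. It was -0.07 without AdKO replicate 2, 0.34 without AdWT replicate 1 and 0.41 scaled to the adipocyte markers. The 1 with an unadjusted *p* under 0.05 (10%, against 5.73% of all rows) was *Zfp423*. This zinc finger factor is known to promote preadipocyte commitment, unlike the list's name, and to hold back the beige program. It had 313, 330 and 315 CPM against 266, 292 and 275 CPM (log2 fold change -0.20, standard error 0.0663). *Gata3*, *Dlk1* and *Wnt10b* were listed at 0.

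Known target genes of the factors were also examined. Of 25 textbook targets of PPARγ, 19 had a row and 14 passed the filter. The AdKO-labelled libraries were higher in 4 and lower in 10, with a median (log2 fold change) of -0.16 (0.11 scaled to the adipocyte markers), beside 0.007 over all rows. At an unadjusted *p* under 0.05 there were 3 (21.4%, against 5.73% of all rows), and none had an adjusted *p* under 0.05 in edgeR, while DESeq2 called *Cd36*. *Cd36*, a fatty acid transporter with 5 rows, had on its main row 20.5, 21.5 and 14.3 CPM against 10.2, 10.7 and 7.87 CPM, with groups that did not overlap, as in 11.9% of all rows (log2 fold change -0.97, standard error 0.200, adjusted *p* = 0.817 in edgeR). With its rows summed the log2 fold change was -0.96. Whether reads common to these rows were left uncounted was not tested. The call depended on the tool, since DESeq2 gave *Cd36* a log2 fold change of -0.98 with an adjusted *p* of 0.0091 by default and 0.0232 when its outlier and independent filters were off. *Aqp7*, the glycerol channel of adipocytes, had 112, 123 and 107 CPM against 105, 97.8 and 88.1 CPM (log2 fold change -0.24). *Pck1*, which makes glycerol 3-phosphate for triglyceride in fat, went the other way, with 88.4, 106 and 92.1 CPM against 189, 116 and 148 CPM (log2 fold change 0.66, standard error 0.172). *Gpd1* and *Pnpla2* were listed at 0. The summed level of the listed targets lay between 57500 and 64000 CPM in AdWT-labelled libraries and between 52200 and 56600 CPM in AdKO-labelled ones. It shares genes with the adipocyte markers, whose sum was lower in the same libraries.

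Targets of PPARα and of the C/EBP factors were counted in the same way. Of 20 PPARα targets, 15 could be tested, 4 higher and 11 lower, with a median of -0.06 (0.21 scaled to the adipocyte markers). With single libraries omitted this median lay between -0.12 and -0.03. *Acaa1b*, a peroxisomal thiolase, was the 1 with an unadjusted *p* under 0.05 (6.67%, against 5.73% of all rows), at 101, 110 and 142 CPM against 83.8, 83.1 and 84.5 CPM (log2 fold change -0.49, standard error 0.124). Of 15 C/EBP targets of fat and the acute phase, 9 could be tested, 7 higher and 2 lower, with a median of 0.15 that was -0.11 when AdWT replicate 3 was omitted and 0.57 when AdWT replicate 1 was. It was 0.41 with the replicate block, 0.40 with the rows of a symbol summed and 0.37 scaled to the adipocyte markers. At an unadjusted *p* under 0.05 there were 4 (44.4%, against 5.73% of all rows) and with an adjusted *p* under 0.05 in edgeR none. Besides *Pck1*, they were *Lcn2*, which encodes the acute-phase lipocalin-2, with 15.2, 8.43 and 9.43 CPM against 14, 36.2 and 70.2 CPM, *Socs3*, a feedback inhibitor of cytokine signalling, with 14.9, 12.6 and 11.1 CPM against 17.6, 18.8 and 14.6 CPM, and *Lep*, the hormone leptin, with 8920, 10100 and 11900 CPM against 6830, 6760 and 8810 CPM. The log2 fold change of *Lcn2* was 1.87, and 1.19 without AdKO replicate 3. *Lcn2* and *Socs3* overlapped between groups and *Lep* did not, where 11.9% of all rows did not overlap. *Insr* was listed at 0. The C/EBP genes themselves were not analysed here, so no value of a factor stands beside these targets.

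**Figure D5:**
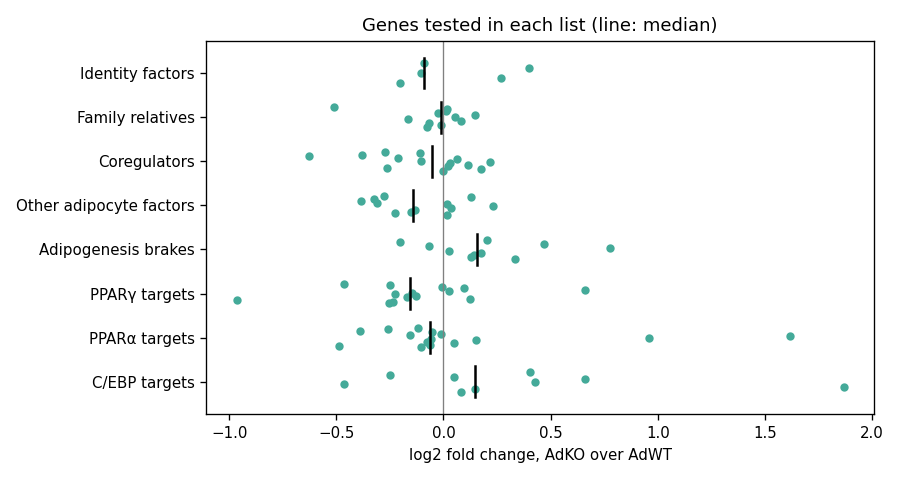
Log2 fold change of AdKO-labelled over AdWT-labelled libraries (x axis) for each gene tested in the 5 factors and 7 related lists (rows), with a line at the median. Medians lie between -0.16 for PPARγ targets and 0.16 for the adipogenesis brakes, and no gene shown had an adjusted *p* under 0.05 in edgeR's test.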

How the data were processed

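RNA from iWAT was sequenced from KAPA stranded libraries on an Illumina HiSeq. Alignment by the authors used HISAT2 and mm9, and the values they deposited are raw read counts without normalization. Their counting tool and annotation are not given in the sources used here. The submitters' processing notes also name DESeq2. Every column belonged to a labelled library. Of 37024 rows, 17470 were at 0 throughout.

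The members and gene lists were chosen with earlier results of these data known. For each symbol the row with the highest total was used. Counts were compared with edgeR 4.0.16 (R 4.3.3, limma 3.58.1): filterByExpr by group, TMM scaling (factors 0.937 to 1.043), glmQLFit and glmQLFTest, and Benjamini-Hochberg adjustment over 9872 rows, with a threshold of 0.05. Standard errors were taken as the absolute log2 fold change over the root of F, and 95% intervals use the t distribution with the total degrees of freedom. Permutation tests added 0.5 to counts. edgeR's common coefficient of biological variation was 0.196. Both edgeR and DESeq2 1.42.0 were tested on simulated data (random seed 1). Figures used Python 3.11.15 and matplotlib 3.10.9.

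Alternatives were DESeq2 with its defaults and a level of 0.05, or without its outlier and independent filters, scaling by RLE, by upper quartile, by library size or to adipocyte markers, low-count filters (1 count in any library, 10 in all), robust estimation, blocking by replicate number, summing a symbol's rows, removing muscle markers, and omitting single libraries. Of 5 planned ratios, 4 needed C/EBP or EBF genes and were not run, and the other 3 ratios were added after the data were seen. Named genes are the members and, of each related list, those with an unadjusted p under 0.05 among the 4 smallest, and genes at 0, with *Ppard* and *Cebpg* added after their values were seen. Outside this rule, *4930412L05Rik* and the cell type markers *Fabp4*, *Adipoq*, *Plin1*, *Ttr* and *Epcam* are also named. Genes of like pattern (those for *Rxra* and *Klf15* added after the data were seen) were sought among symbols with a mean of at least 10 CPM.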

Additional observations from a re-analysis of the deposited data

How the results depend on the processing

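Scaling to the adipocyte marker list shifted the median of all rows to 0.28 (log2) and turned the log2 fold change of *Pparg* to 0.17, of *Rxra* to 0.18 and of *Klf15* to 0.07, with *Tbl1x* at 0.01, *Foxo1* at 0.05, *Zfp423* at 0.07 and *Aqp7* at 0.03. Relative to that median, *Pparg* was at -0.10, *Rxra* at -0.09 and *Klf15* at -0.20. By the construction of this scaling, list medians moved with it, to 0.18 for the 5 factors, 0.26 for relatives, 0.21 for coregulators, 0.14 for other factors, 0.41 for brakes, 0.11 for PPARγ targets, 0.21 for PPARα targets, 0.04 for adipocyte markers, 0.55 for progenitor markers and 0.31 for immediate early genes. With library size only, the medians were 0.04 for relatives and -0.01 for coregulators. With at least 10 counts in every library, where *Ppara* and *Prdm16* could not be tested, they were 0.00 for coregulators and -2.12 for muscle markers. Rows past an adjusted *p* of 0.05 numbered 27 with DESeq2's defaults, 13 without Cook's cutoff and independent filtering, and 1 with at least 1 count in any library. The cause was not tested. No factor had an adjusted *p* under 0.05 in any alternative that gave one (lowest 0.232).

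With single libraries omitted, the number of rows called lay between 0 and 1, and the log2 fold change between -0.29 and 0.00 for *Pparg*, -0.12 and 1.17 for *Ppara*, -0.16 and -0.02 for *Rxra*, -0.31 and -0.09 for *Klf15* and -0.06 and 0.83 for *Prdm16*. Reversals were *Ppara* without AdWT replicate 1 (-0.12) and AdKO replicate 1 (-0.02), and *Prdm16* without AdKO replicate 2 (-0.06). The *Pparg* to *Rxra* log2 ratio lay between -0.12 and 0.04 (above 0 without AdWT replicate 3, 0.03, AdKO replicate 1, 0.04, and AdKO replicate 3, 0.01) and that of *Ppara* to *Pparg* between 0.06 and 1.19. Medians lay between -0.06 and -0.01 for coregulators, -0.26 and -0.05 for other factors, -0.07 and 0.34 for brakes, -0.21 and -0.08 for PPARγ targets, -0.11 and 0.57 for C/EBP targets, -1.24 and 0.62 for B cell, -3.93 and -2.21 for muscle, -3.49 and 1.71 for hepatocyte and -1.01 and 3.26 for epithelial markers.

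The deviations of same-numbered libraries correlated over genes at -0.069, -0.14 and 0.317, the last the highest for AdWT replicate 3. With 3 libraries per group this cannot show whether the numbers pair the libraries. With the replicate block, 0 rows were called and the log2 fold changes of *Pparg*, *Ppara*, *Rxra*, *Klf15* and *Prdm16* were -0.12, 0.30, -0.09, -0.19 and 0.39. *Ppara* and *Prdm16* had the fewest counts, 3 to 20 per library. *Cd36* was called by DESeq2 (adjusted *p* = 0.0091 and 0.0232) and by no edgeR alternative (lowest 0.138). Of the 12 named list genes with an unadjusted *p* under 0.05 that were refitted, 9 lost it in at least 1 of 18 alternatives, and *Cd36*, *Lcn2* and *Pck1* did not.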

Other observations

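Markers of other cells of the depot were read from the same fit. All 5 tested macrophage markers had a log2 fold change above 0, with a median of 0.38, and the 5 markers with a row summed to between 894 and 1640 CPM in AdWT-labelled libraries and between 1460 and 1750 CPM in AdKO-labelled ones. The median was 0.14 without AdWT replicate 3 and 0.58 without AdWT replicate 1. Of 6 tested progenitor markers, 4 were higher and 2 lower (median 0.30, and 0.18 without AdWT replicate 3), summing to between 3550 and 7580 CPM against 5780 and 10400 CPM. Endothelial markers were 3 higher and 2 lower (median 0.10, 1010 to 1460 against 986 to 1410 CPM), with a median of -0.03 without AdKO replicate 2 and 0.29 without AdWT replicate 1. None of these had an unadjusted *p* under 0.05. Summed levels cover every marker with a row, tested or not. The 8 B cell markers with a row summed to 2.07 to 9.75 against 1.80 to 5.20 CPM, and the 2 tested had a median of -0.08. Hepatocyte markers summed to 109 to 509 against 105 to 229 CPM (median of the 4 tested -1.31, but 1.71 without AdWT replicate 3). All 4 were highest in replicate 3 of each group, with *Ttr* at 3.66, 9.27 and 149 CPM against 2.41, 8.96 and 55.8 CPM. The 5 epithelial markers with a row summed to 0.956 to 20.3 against 0.894 to 48.0 CPM. Of these *Epcam* alone was tested, with 0.785, 0.179 and 1.34 CPM against 0.412, 0.329 and 13 CPM (log2 fold change 2.60). The median of the epithelial markers tested was -1.01 without AdKO replicate 3, and 0.23 without AdWT replicate 1 or AdWT replicate 2. All 7 tested muscle markers were lower with an unadjusted *p* under 0.05 (100%, against 5.73% of all rows). Each was highest in AdWT replicate 2, so they are not separate results. Their median was -3.50, and -2.21 without that library. *Tnnt3* and *Myh4* were listed at 0. Of 6 tested adipocyte markers, 5 were lower and 1 higher (median -0.24). Of 8 immediate early genes, 6 were higher and 2 lower (median 0.05), a median that was -0.05 without AdKO replicate 1. The 1 with an unadjusted *p* under 0.05 (12.5%, against 5.73% of all rows) was *Jun*, with 4009, 4126 and 4298 counts against 3297, 3060 and 3659 (log2 fold change -0.30).

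Of 4677 other symbols with a mean of at least 10 CPM, those whose centred log2 CPM over the 6 libraries lay nearest to that of *Pparg* were *Tbc1d22b*, *Ift46* and *Syt12*, with root mean square differences of 0.0821, 0.0858 and 0.0906, where *Pparg* itself had a standard deviation of 0.211. For *Rxra* they were *Usp30*, *Mrpl37* and *F8a* (0.0207, 0.0239 and 0.0314) and for *Klf15* *Ube2o*, *Bcl9l* and *Fosl2* (0.0570, 0.0604 and 0.0606). With 6 libraries and this many candidates, such nearness is a description only.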
